A study of Mus musculus with 6 samples.

Results

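The genes described here encode secreted or cell-surface proteins through which astrocytes act on synapses: Sparc, Sparcl1 (hevin), the thrombospondins Thbs1 to Thbs4 and the glypicans Gpc4, Gpc5 and Gpc6. They were taken as the rows of the deposited expression table whose symbol equals one of these names, which gave 9 genes of 43383 rows, each with a single row. Upper-layer astrocytes (ULAs, from layers II to IV) were compared with deep-layer astrocytes (DLAs, from layers V and VI) of the neocortex. All libraries came from 4-week-old male Aldh1l1-eGFP mice, with no other allele or treatment named, in which the promoter of the astrocyte gene Aldh1l1 drives green fluorescent protein. Tissue of the somatosensory area was cut into upper and deep parts, with layer I, the meninges, the corpus callosum and some of the tissue between layers IV and V left out, and GFP-positive cells were sorted from each part. A library therefore holds whatever cells the transgene and the gate let through, pooled within a layer. There were 3 brains with 1 library per layer, hence 6 libraries, and ULAs and DLAs of the same brain were paired by the replicate number.

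Astrocytes release matricellular proteins, which bind matrix and receptors rather than build the matrix, and these steer where and how neurons form synapses. Thrombospondins were the first such factors described in cultured retinal neurons, and they act through the calcium channel subunit α2δ-1. Hevin promotes the formation of excitatory synapses by bridging adhesion proteins of the presynaptic and postsynaptic membranes, and SPARC, its closest relative, opposes hevin. Glypicans are heparan sulfate proteoglycans tied to the membrane by a lipid anchor, and Gpc4 and Gpc6 shed from astrocytes recruit AMPA-type glutamate receptors to young synapses.

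The values were RPKM, read numbers divided by mRNA length and by library depth, which puts genes and libraries on 1 scale. Effects of length remained, so levels of different genes or libraries can be compared only approximately. The correlation (rho) of a library's deviation within its layer with mRNA length ran from −0.242 (DLAs of brain 2) to 0.228 (DLAs of brain 1). The depth, read from the steps between RPKM values of short mRNAs, ranged from 24.4 to 26.7 M reads in the ULA libraries and from 19.7 to 29.6 M reads in the DLA libraries. All 10 astrocyte markers examined were detected in every library, among them Aldh1l1 at 203.27 to 271.06 RPKM, and limma called 0 of them between layers (4 at an unadjusted p under 0.05). Those 4 were Slc1a3, Fgfr3 and Gja1, higher in ULAs of all 3 brains, and S100b, higher in DLAs of all 3. The paper lists the first 3 as enriched in upper layers. The summed RPKM of the 10 markers was 11564.64 to 12519.39 in ULAs and 10896.82 to 11685.02 in DLAs. Aldoc, at 4567.53 to 5925.41 RPKM, was the largest part of it. The oligodendrocyte markers and the red blood cell markers were higher in DLAs, with 6 of 7 and 3 of 3 tested genes passing, and their values are given with Sparc. Layers were compared with limma on log2(RPKM + 1) in 13999 rows, those averaging 1 RPKM or more over the 6 libraries, with brain and layer as terms. A gene was called at a Benjamini-Hochberg adjusted p under 0.05. Of these rows, 0.914% (128) were called higher in DLAs and 0.714% (100) higher in ULAs, a balance that turned to 103 and 138 with quantile normalization.

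Of the 9 genes, 6 passed the filter on low values (Sparc, Sparcl1, Thbs3, Gpc4, Gpc5 and Gpc6) and 3 did not (Thbs1, Thbs2 and Thbs4). In the comparison of layers, Sparc was called higher in DLAs and 0 of the 6 tested genes were called higher in ULAs. At an unadjusted p under 0.05 limma gave the same 1 gene of the 6, Sparc. Of all 13999 rows tested, 1505 higher in DLAs and 790 higher in ULAs reached that p. The median log2 difference (ULAs minus DLAs) of the 6 was 0.11, beside −0.027 for all rows tested. Since the RNA came from pooled cells, fewer cells of a type and less RNA per cell cannot be told apart in any of these values.

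**Figure D1:**
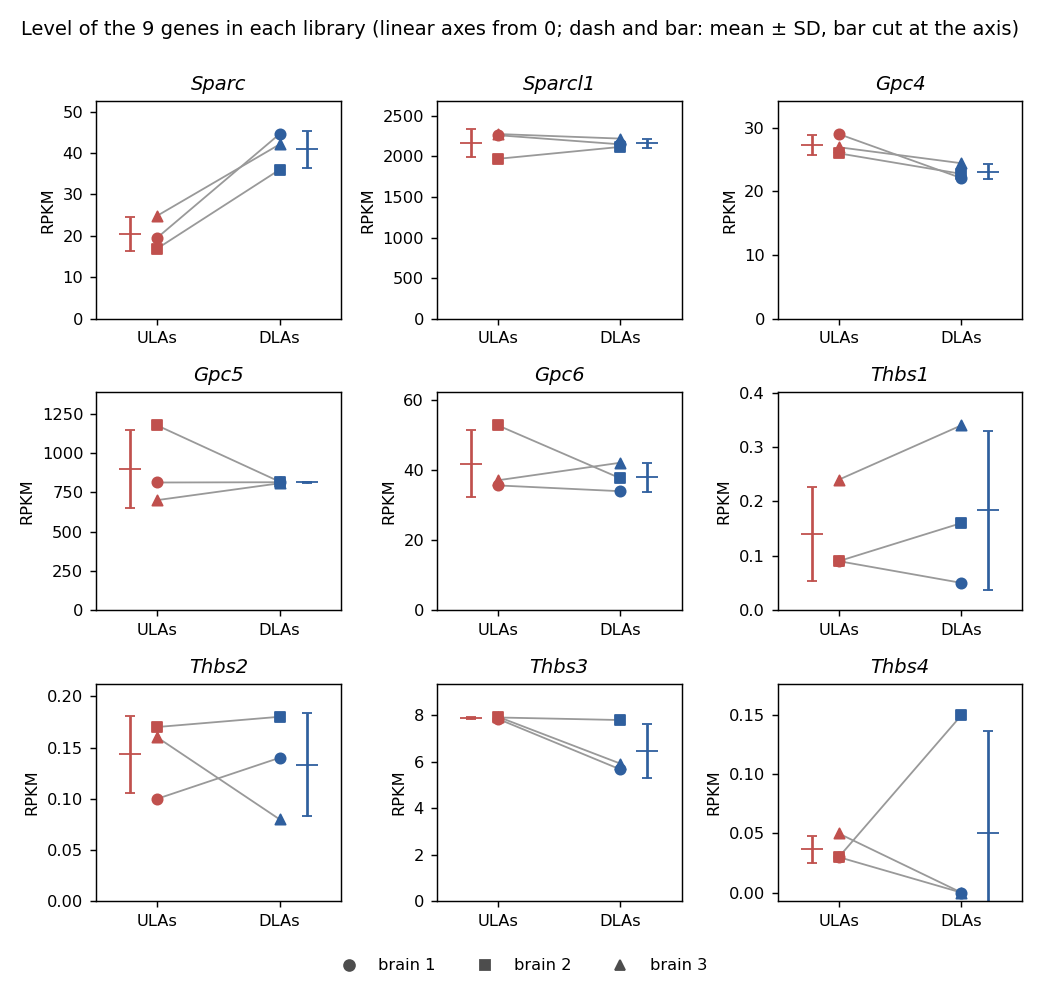
RPKM (vertical axes, linear, from 0) of each of the 9 genes in ULAs (red) and DLAs (blue), with grey lines joining the layers of 1 brain and a dash with a bar for the mean ± SD of 3 libraries, the bar of Thbs4 being cut at the axis. Sparc lies at 16.92 to 24.85 RPKM in ULAs and 35.99 to 44.61 in DLAs, the layers of Sparcl1 overlap between 1969.56 and 2275.25, and Gpc5 and Gpc6 each have 1 ULA library, that of brain 2, above the others.

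Sparc encodes osteonectin, a collagen-binding matricellular protein that in the brain restrains the synapse-forming action of hevin. Its row lies on chromosome 11 from 55208003 to 55233582 of mm9, on the minus strand, with 10 exons and an mRNA of 2299 bases. In ULAs its level was 19.54, 16.92 and 24.85 RPKM in brains 1, 2 and 3, and in DLAs it was 44.61, 35.99 and 42.11 RPKM. The layers did not overlap, and the deep layers were higher in each of the 3 brains. The mean was 20.4 ± 4.04 RPKM (SD, n = 3) in ULAs and 40.9 ± 4.43 in DLAs. Within brains the deep/upper ratio was 2.28, 2.13 and 1.69, on average 2.03 ± 0.305, so brain 3 showed the smallest step.

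The difference of Sparc on the log2(RPKM + 1) scale was −0.98 (SE 0.12, 95% interval −1.24 to −0.72, adjusted p = 0.00346, limma), which corresponds to 1.97-fold more in DLAs. It ranked 31 by p and 52 by size among the rows lower in ULAs, of 13999 tested. Sparc was 1 of the 9 genes with all DLA libraries above all ULA libraries, a pattern found in 9.27% of the rows tested. The call was lost when the filter on low values was dropped (adjusted p = 0.30 over 27963 rows, with the same difference). Sparc is also among the genes that the study itself picked as deep-layer enriched on these libraries, so its direction here is not independent evidence. The smallest p that an exact permutation of 3 pairs allows is 0.25, so none was run.

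**Figure D2:**
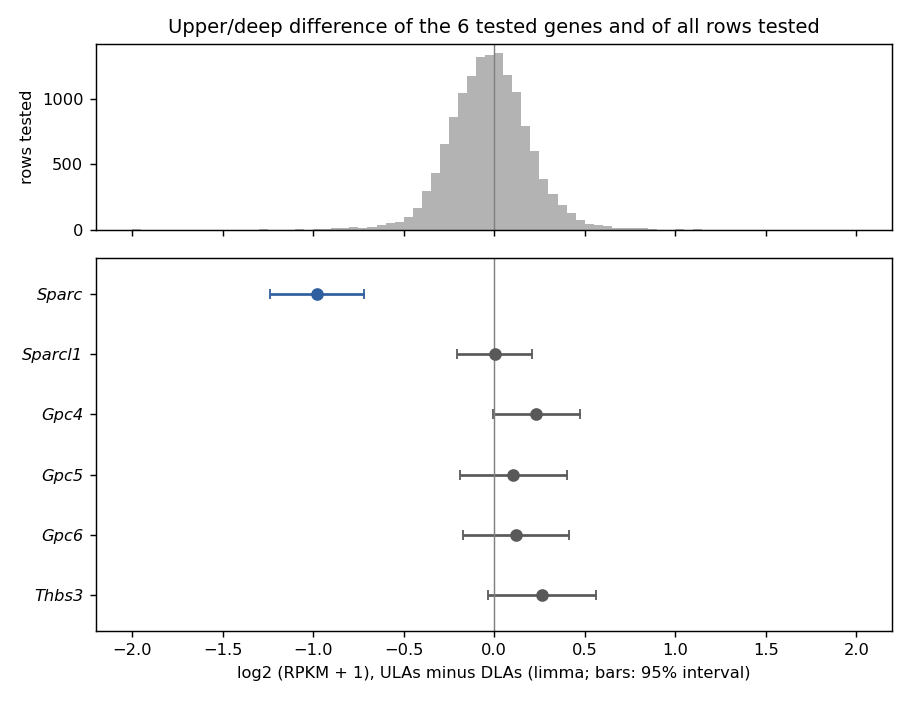
Top, a histogram of the log2(RPKM + 1) difference (ULAs minus DLAs) over the 13999 rows tested, with values beyond 2 in either direction placed in the end bins. Bottom, the same difference for the 6 tested genes with 95% intervals from limma: the interval of Sparc, −1.24 to −0.72, lies wholly below 0, and those of the other 5 include 0.

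Sparc is strongly made by blood vessels and by some microglia as well as by astrocytes, so the markers of other cells were read in the same libraries. Of the 10 endothelial markers, 9 fell below the filter, and the defining genes Cdh5 and Kdr stood at 0 to 0.01 and 0 to 0.03 RPKM. The summed endothelial level was 2.33 to 3.48 RPKM in ULAs and 1.41 to 7.73 in DLAs. Between ULAs and DLAs this sum went from 2.33 to 7.73 RPKM in brain 1, from 2.65 to 1.41 in brain 2 and from 3.48 to 3.22 in brain 3. The summed level of 8 pericyte and smooth muscle markers was 16.08 to 23.14 RPKM in ULAs and 12.01 to 19.13 in DLAs, with Kcnj8 and Abcc9 at or near 0 and Rgs5 called higher in ULAs. The 9 microglial markers summed to 13.96 to 14.86 RPKM in ULAs and 9.14 to 12.29 in DLAs, most of it P2ry12, and were lower in DLAs in all 3 brains. What part endothelial cells, pericytes or microglia have in the level of Sparc was not tested.

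Markers of oligodendrocytes, red blood cells and meningeal fibroblasts had, like Sparc, a higher sum in DLAs than in ULAs of each brain. The 8 oligodendrocyte markers summed to 92.84, 88.82 and 183.78 RPKM in ULAs of brains 1, 2 and 3, and to 179.99, 206.73 and 287.56 RPKM in DLAs. The ranges of these sums overlapped between the layers, at 88.82 to 183.78 RPKM in ULAs and 179.99 to 287.56 in DLAs. Myelin basic protein (Mbp) behaved differently from the sum, with 10.5 to 15.87 RPKM in ULAs and 35.24 to 37.97 in DLAs. Red blood cell markers, of which Hba-a1 and Hba-a2 had no row, summed to 0 to 0.98 RPKM in ULAs and 14.52 to 74.84 in DLAs. Hbb-b1 and Hbb-b2 had nearly equal levels in each library, 1.91 to 15.17 and 1.96 to 15.57 RPKM in DLAs and 0 in ULAs. Whether these rows count the same reads was not tested, so they may not be separate signals. The 6 meningeal markers summed to 3.11 to 4.1 RPKM in ULAs and 4.98 to 6.29 in DLAs, with 0 of 1 tested called by limma (1 at an unadjusted p under 0.05), Slc6a13 listed at 0 in every library and Dcn and Lum at or near 0. What part cells of these 3 kinds have in the level of Sparc was not tested. Neuronal markers (10) summed to 7.29 to 7.68 RPKM in ULAs and 5.27 to 7.9 in DLAs, and those of oligodendrocyte precursors (4) to under 1 RPKM in every library.

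**Figure D3:**
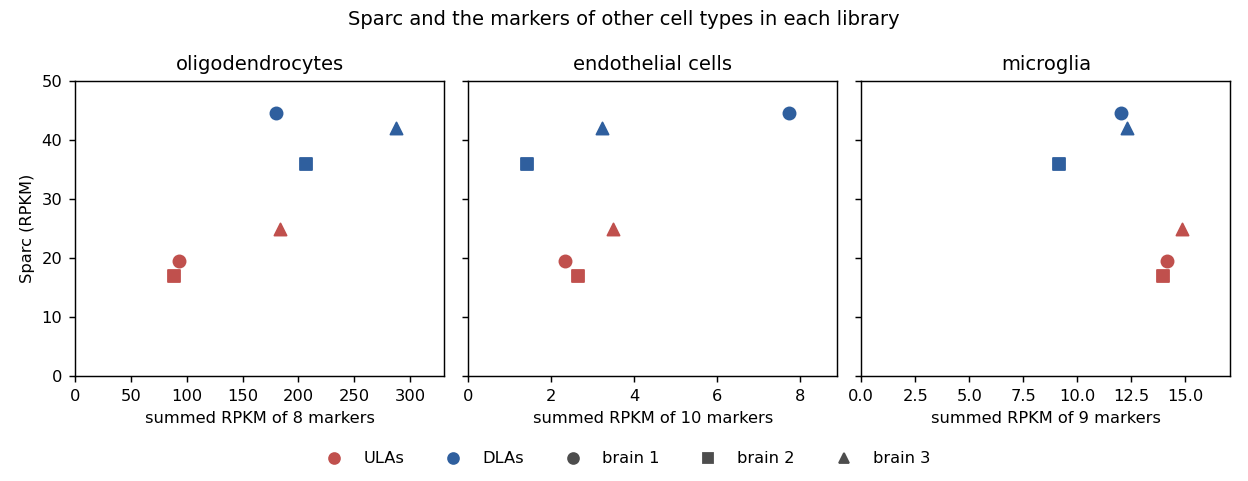
Sparc (RPKM, vertical axis) in each library against the summed RPKM of 8 oligodendrocyte, 10 endothelial and 9 microglial markers (horizontal axes), with ULAs in red, DLAs in blue and a symbol for each brain. The oligodendrocyte sum is 88.82 to 183.78 in ULAs and 179.99 to 287.56 in DLAs, and is higher in DLAs of each brain. The endothelial sum is highest in DLAs of brain 1, 7.73, and lowest in DLAs of brain 2, 1.41.

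Sparcl1 encodes hevin, which shares the domain layout of SPARC and promotes the contact of thalamic axons with cortical neurons. It lies on chromosome 5 from 104508128 to 104543107 of mm9, on the minus strand, with 11 exons and an mRNA of 3116 bases. The level was 2260.64, 1969.56 and 2275.25 RPKM in ULAs of brains 1, 2 and 3, and 2148.16, 2116.78 and 2218.93 RPKM in DLAs. The layers overlapped, and which layer was higher varied from brain to brain. Averages were 2168 ± 172 RPKM (SD, n = 3) in ULAs and 2161 ± 52.3 in DLAs. The log2 difference was 0.0019 (SE 0.094, adjusted p = 0.994, limma), and its 95% interval allowed an upper/deep fold between 0.867 and 1.16. Sparcl1 ranked 25 by mean RPKM among all 43383 rows. A row on the opposite strand, ENSMUSG00000087488, at a mean of 116.4 RPKM, shares 201 exon bases with it, 6.45% of its mRNA, and the library kit does not mark strand, so reads on that stretch cannot be assigned.

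Hevin and its antagonist stood in different proportion in the 2 layers. The ratio of Sparcl1 to Sparc RPKM was 115.7, 116.4 and 91.6 in ULAs and 48.2, 58.8 and 52.7 in DLAs. On average it was 107.9 ± 14.1 (SD, n = 3) and 53.2 ± 5.35, and the lowest ULA value lay above the highest DLA value. The level of Sparcl1 differed between layers by less than its spread, so the ratio repeats the difference of Sparc, and it was given no test of its own.

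Among the glypicans, Gpc5 was by far the most abundant. Gpc5 encodes a glypican that binds hedgehog proteins and lies on chromosome 14 from 115491437 to 116924414 of mm9, on the plus strand, where its 8 exons are spread over 1433 kb. ULAs of brains 1, 2 and 3 had 813.04, 1177.1 and 700.65 RPKM, and DLAs 814.79, 818.23 and 807.97 RPKM. The DLA libraries were nearly equal. ULAs of brain 1 lay within their range, ULAs of brain 2 above it and ULAs of brain 3 below it. The means were 896.9 ± 249 RPKM (SD, n = 3) and 813.7 ± 5.22. Fitted over the 3 brains, the log2 difference was 0.11 (SE 0.13, 95% interval −0.19 to 0.40, adjusted p = 0.737). Gpc5 ranked 59 by mean RPKM among all rows. An intronic row on the opposite strand, 4930505G20Rik, had a mean of 59.9 RPKM and shares 0 exon bases with Gpc5.

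Gpc6, whose product acts with that of Gpc4 on AMPA receptors, lies 400.1 kb downstream of Gpc5 with 0 rows of the table between them, from 117324537 to 118378751. It is also a long gene, with 10 exons over 1054 kb and an mRNA of 6762 bases. Its level was 35.53, 52.65 and 37 RPKM in ULAs and 33.88, 37.55 and 42.01 RPKM in DLAs of brains 1, 2 and 3. As for Gpc5, the ULA library of brain 2 stood highest and the layers overlapped. Means were 41.7 ± 9.49 RPKM (SD, n = 3) and 37.8 ± 4.07, and the log2 difference was 0.12 (SE 0.13, 95% interval −0.17 to 0.41, adjusted p = 0.687). Gpc5 and Gpc6 kept a similar proportion in every library, with a Gpc5/Gpc6 ratio of 21.4 ± 2.14 in ULAs and 21.7 ± 2.41 in DLAs.

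The high values of Gpc5 and Gpc6 in ULAs of brain 2 went along with the genomic span of the genes. Relative to the mean of the other 2 ULA libraries on the log2(RPKM + 1) scale, this library was higher by 0.64 for Gpc5 and by 0.53 for Gpc6. Over all 124 tested rows spanning at least 500 kb, the median of the same measure was 0.31, against −0.056 for rows under 5 kb and −0.023 for all rows. Among the 124 long genes, Gpc5 lay at percentile 91.1 and Gpc6 at percentile 83.1. Nlgn1 (900.1 kb), which encodes the hevin partner neuroligin 1, deviated by 0.62 in this library, whereas Nrxn3 (1612 kb) and Ptprd (653.1 kb) deviated by 0.33 and 0.17, at percentiles 51.6 and 29 of the long genes. When the trend on genomic span was removed in each brain, the differences between layers became −0.066 for Gpc5 and −0.042 for Gpc6, and without brain 2 they were −0.10 and −0.056. The direction of both genes thus rested on brain 2.

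**Figure D4:**
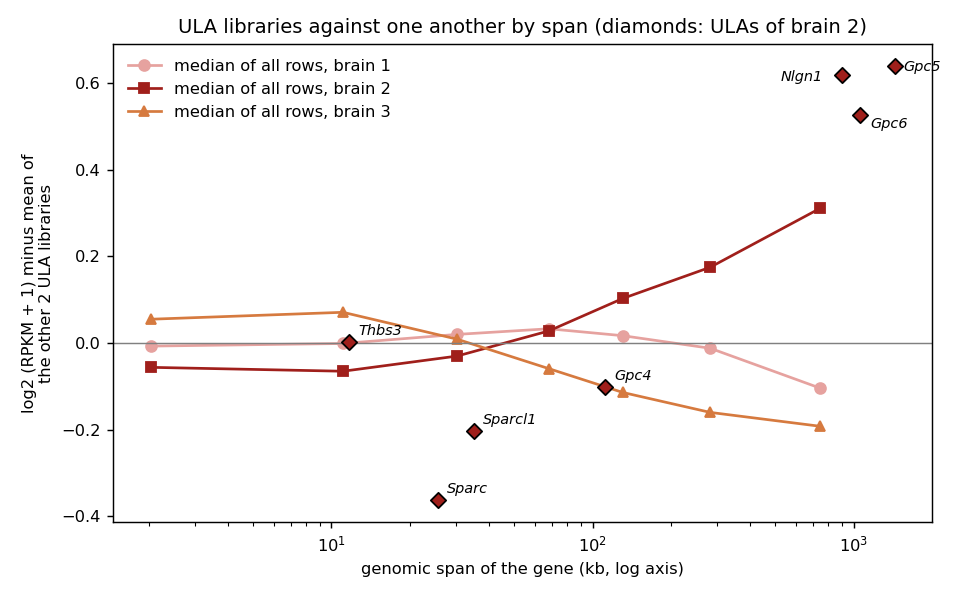
Difference in log2(RPKM + 1) between a ULA library and the mean of the other 2 ULA libraries (vertical axis) against the genomic span of the gene in kb (horizontal, log axis). Lines join the medians of all rows tested within 7 classes of span for each brain, and diamonds show single genes in ULAs of brain 2, where the median reaches 0.31 for rows of at least 500 kb and Gpc5 and Gpc6 stand at 0.64 and 0.53.

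Gpc4, whose protein signals through the presynaptic receptor Ptprd and the release of Nptx1, lies on the X chromosome from 49406195 to 49518100 of mm9, on the minus strand, with 9 exons and an mRNA of 2325 bases. Its level was 28.98, 25.95 and 26.91 RPKM in ULAs and 22.07, 22.73 and 24.4 RPKM in DLAs of brains 1, 2 and 3. The layers did not overlap, and ULAs were higher in 3 of 3 brains by a small step, as in 15.2% of the rows tested. Averaged, Gpc4 had 27.3 ± 1.55 RPKM (SD, n = 3) in ULAs and 23.1 ± 1.20 in DLAs, with upper/deep ratios of 1.31, 1.14 and 1.10. The log2 difference of 0.23 (SE 0.11, 95% interval −0.0091 to 0.47) did not pass the test (adjusted p = 0.322, limma). Of the 9 genes, Gpc4 and Thbs3 had all ULA libraries above all DLA libraries, and 6.59% of the rows tested did.

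The 3 glypicans summed to 965.9 ± 257 RPKM in ULAs and 874.5 ± 3.89 in DLAs. Of this sum Gpc5 made up 92.7% ± 1.05 in ULAs and 93.0% ± 0.591 in DLAs. Gpc4, by contrast, accounted for 2.96% ± 0.784 and 2.64% ± 0.135, and Gpc6 for 4.36% ± 0.421 and 4.32% ± 0.459. The composition of the glypican pool by RPKM thus differed between layers by less than its spread in ULAs.

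Among the thrombospondins, which are large multimeric glycoproteins, Thbs3 was the only member of the 4 that passed the filter. It belongs to the pentameric subgroup with Thbs4 and lies on chromosome 3 from 89019109 to 89030759 of mm9, on the plus strand, with 23 exons and an mRNA of 3183 bases. In brains 1, 2 and 3 it had 7.83, 7.89 and 7.92 RPKM in ULAs and 5.66, 7.78 and 5.91 RPKM in DLAs. The ULA libraries were almost equal, and of the DLA libraries only that of brain 2 came close to them. The means were 7.88 ± 0.0458 RPKM (SD, n = 3) and 6.45 ± 1.16. The log2 difference of 0.26 (SE 0.13, 95% interval −0.034 to 0.56) did not pass the test (adjusted p = 0.358, limma).

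Thbs1 and Thbs2 encode the trimeric thrombospondins first tied to synapse formation, and both were near the limit of detection. Thbs1, on chromosome 2 from 117937658 to 117952869, had 0.09, 0.09 and 0.24 RPKM in ULAs and 0.05, 0.16 and 0.34 RPKM in DLAs of brains 1, 2 and 3. Per library this came to between 8 and 60 reads. The most Thbs1 was found in brain 3 in either layer, and the layers overlapped. Thbs2, on chromosome 17 from 14802507 to 14831269, had 0.1, 0.17 and 0.16 RPKM in ULAs and 0.14, 0.18 and 0.08 RPKM in DLAs, on 15 to 27 reads. Its layers overlapped.

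Thbs4, a thrombospondin found in adult brain and muscle, lies on chromosome 13 from 93521541 to 93564773 and was the scarcest of the 9 genes. It had 0.03, 0.03 and 0.05 RPKM in ULAs, or 3 to 5 reads, and 0.15 RPKM, or 10 reads, in DLAs of brain 2. In DLAs of brains 1 and 3 it was listed at 0, where 3 reads would give 0.0353 and 0.0317 RPKM. Such floors cover counting error only. When all rows above 0 in any library were tested with limma, the adjusted p was 0.759 for Thbs1, 0.942 for Thbs2 and 0.943 for Thbs4. That fit called 0 of 27963 rows and lost Sparc as well (adjusted p = 0.30). It therefore cannot decide whether these genes differ between layers. With the other thrombospondins this scarce, Thbs3 made up 96.1% ± 1.35 of the summed thrombospondin RPKM in ULAs and 94.7% ± 1.79 in DLAs.

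Ordered by mean RPKM, the ULAs ran Sparcl1, Gpc5, Gpc6, Gpc4, Sparc, Thbs3, Thbs2, Thbs1 and Thbs4. In that order only Thbs2 and Thbs1 had ranges that overlapped with their neighbour. In DLAs Sparc came after Sparcl1 and Gpc5 and before Gpc6, Gpc4, Thbs3, Thbs1, Thbs2 and Thbs4. There the ranges of Sparc and Gpc6 overlapped, as did those of Thbs1 and Thbs2 and of Thbs2 and Thbs4. The same 6 genes thus stood above 5 RPKM in both layers, and Sparc, lowest of them but Thbs3 in ULAs, had a range above that of Gpc4 in DLAs.

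The receptors, partners and relatives of these proteins were read from 7 lists of 52 genes in all, of which 33 passed the filter. Among those 33, 3 were called higher in ULAs (Hs3st1, Chrdl1 and Nptx2) and 1 higher in DLAs (Il33). Of all rows tested, 0.714% were called higher in ULAs and 0.914% higher in DLAs. The median log2 difference was 0.14, beside −0.027 for all rows. All lists were written with earlier results of these data known, among them Chrdl1, Nptx2 and their values. The remaining tested genes were not called, and their intervals are shown in the plot of partner and related genes.

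**Figure D5:**
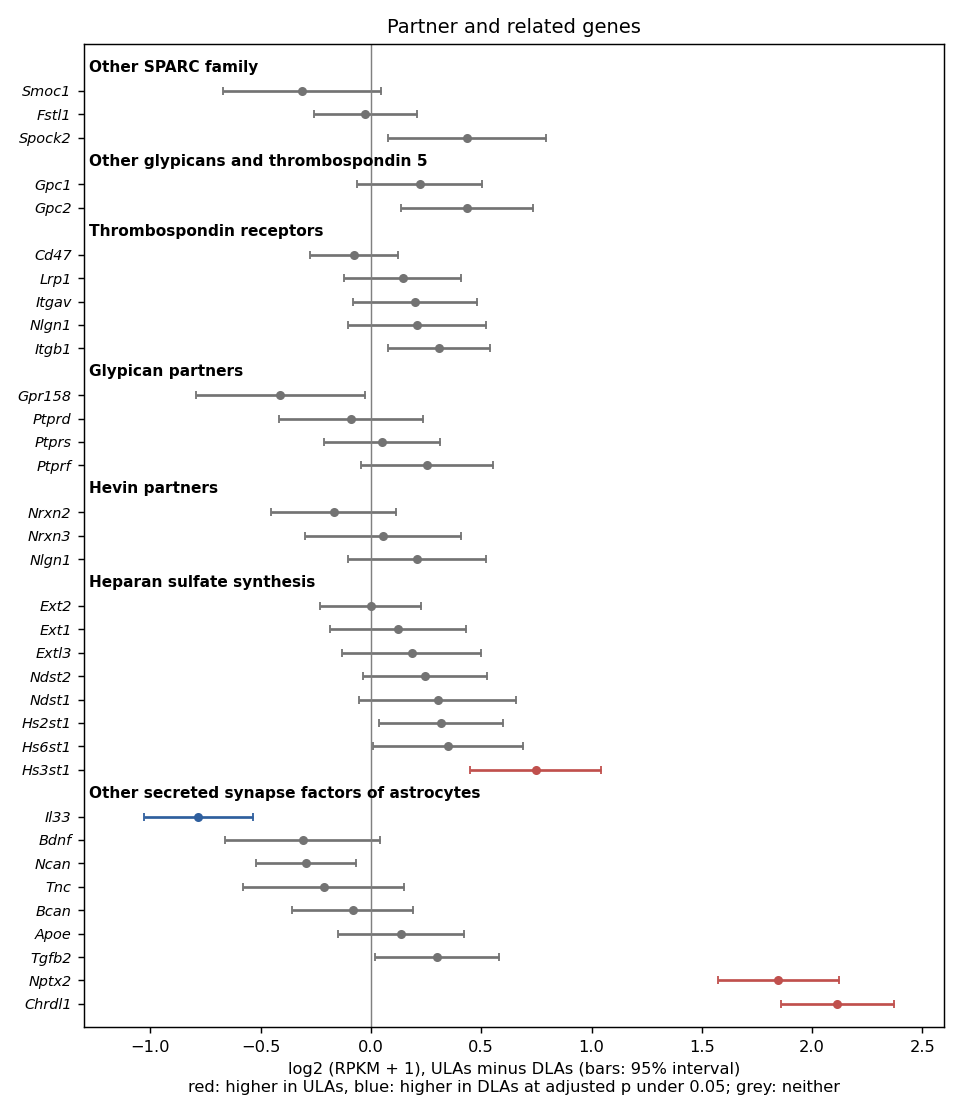
Difference in log2(RPKM + 1), ULAs minus DLAs (horizontal axis), with the 95% interval from limma for the genes of the 7 lists that passed the filter, grouped by list. Red marks genes called higher in ULAs (Hs3st1, Nptx2 and Chrdl1), blue the gene called higher in DLAs (Il33, −0.78), and grey the remaining genes.

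Of the other members of the SPARC family, 3 of 6 passed the filter and 0 were called (1 at an unadjusted p under 0.05, limma), with a median log2 difference of −0.025. Spock2, a brain proteoglycan of the testican group, had 5.59, 2.91 and 3.87 RPKM in ULAs and 2.77, 2.14 and 3.3 RPKM in DLAs (log2 difference 0.43, adjusted p = 0.224, limma). Smoc1, a secreted modulator of BMP signaling, ran the other way at 1.47 ± 0.275 and 2.11 ± 0.704 RPKM (adjusted p = 0.368), and Fstl1 had 25.1 ± 3.68 and 25.5 ± 3.25 RPKM. No family member other than Sparc was thus called between layers. Of the remaining glypicans and Comp (thrombospondin 5), Gpc1 and Gpc2 passed the filter and neither was called, with 1 at an unadjusted p under 0.05. Gpc2 had 8.28, 6.25 and 5.1 RPKM in ULAs and 5.11, 5.03 and 3.51 RPKM in DLAs, with a log2 difference of 0.43 (SE 0.13, adjusted p = 0.153).

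Among 8 thrombospondin receptors, 5 passed the filter, 0 were called by limma (1 at an unadjusted p under 0.05) and the median log2 difference was 0.20. Cacna2d1, which encodes α2δ-1 and is mostly a neuronal gene, was at 0.25 to 0.6 RPKM. Cd47, an immunoglobulin-family receptor of thrombospondin 1, was the most abundant at 235 ± 11.6 RPKM in ULAs and 248 ± 17.5 in DLAs. Itgb1, the integrin β1 chain, had 35.56, 32.81 and 30.07 RPKM in ULAs and 27.3, 25.95 and 25.53 RPKM in DLAs. The Itgb1 layers did not overlap, but the log2 difference of 0.31 did not pass (adjusted p = 0.186).

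Of 3 genes in the list of hevin partners, all passed the filter, and limma called 0 (0 at an unadjusted p under 0.05). Nlgn1 had 81.66, 122.63 and 77.47 RPKM in ULAs and 75.65, 77.37 and 85.33 RPKM in DLAs, with the same high library as Gpc5 (log2 difference 0.21, adjusted p = 0.49, limma), whereas Nrxn2 and Nrxn3 stood at 5.72 to 13.94 RPKM. Among 7 glypican partners, the presynaptic phosphatases Ptprd, Ptprs and Ptprf passed the filter at 8.8 to 18.3 RPKM, together with the Gpc4 receptor gene Gpr158, and 0 were called by limma (1 at an unadjusted p under 0.05). Gpr158 was measured at 2.89, 5.21 and 1.76 RPKM in ULAs and 5.21, 4.95 and 3.24 RPKM in DLAs, and the layers overlapped (adjusted p = 0.272). Lrrtm4, a postsynaptic glypican receptor, and Nptx1 were below 0.5 RPKM in every library, and Notum, which cleaves the lipid anchor of glypicans, averaged 1.03 ± 0.367 and 0.923 ± 0.501 RPKM.

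The heparan sulfate chains that glypicans carry are built and sulfated by their own enzymes, and 8 of 13 such genes passed the filter. Hs3st1, a 3-O-sulfotransferase, was called higher in ULAs, with 6.33, 7.91 and 4.42 RPKM against 3.1, 4.28 and 2.46 RPKM in DLAs. ULAs were higher in 3 of 3 brains, the layers did not overlap, and the log2 difference was 0.75 (SE 0.13, adjusted p = 0.0230, limma). Of the 8 tested genes, 6 were higher in ULAs in all 3 brains, beside 15.2% of all rows tested, and the median log2 difference was 0.27, beside −0.027 for all rows. The other 7 did not pass, and the list was not tested as a group. Among these, Hs2st1 had 29.5 ± 1.19 RPKM in ULAs and 23.6 ± 3.66 in DLAs (adjusted p = 0.253), and Hs6st1 2.44 ± 0.418 and 1.69 ± 0.179 (adjusted p = 0.297). The chain polymerase genes Ext1 and Ext2 were at 19.1 ± 3.79 and 42.9 ± 1.995 RPKM in ULAs, with log2 differences of 0.12 and −0.0020.

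Other secreted factors of astrocytes with known actions on synapses numbered 12, and 9 passed the filter. Il33, an alarmin cytokine through which astrocytes direct microglia to remove synapses, was called higher in DLAs. Its level was 95.26, 112.6 and 116.25 RPKM in ULAs and 191.24, 201.23 and 167.06 RPKM in DLAs, a log2 difference of −0.78 (SE 0.11, adjusted p = 0.00793). Oligodendrocyte markers were also higher in DLAs, and what part cells other than astrocytes have in the level of Il33 was not tested. Chrdl1, a BMP antagonist that drives the maturation of glutamate receptors, and Nptx2, a pentraxin that clusters them, were called higher in ULAs with log2 differences of 2.11 and 1.85. Ncan, a chondroitin sulfate proteoglycan of the perineuronal matrix, had 38.6 ± 4.37 RPKM in ULAs and 47.4 ± 3.64 in DLAs without overlap, and did not pass (adjusted p = 0.194). Tgfb2 had 12.3 ± 1.71 and 9.75 ± 0.163 RPKM (adjusted p = 0.275), Apoe, the lipid carrier, was at 10227.36 to 14446.28 RPKM, and Tnf and Gdnf were listed at 0 in all 6.

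Genes whose log2(RPKM + 1) followed that of Sparc or Sparcl1 most closely over the 6 libraries were sought among 7914 RefSeq rows averaging 5 RPKM or more. For Sparc, B3galt2, a galactosyltransferase gene, was closest (Pearson r = 0.993), with 3.98, 3.51 and 6.09 RPKM in ULAs and 11.98, 10 and 13.35 in DLAs. It was followed by Hrsp12, Isca2, Sri and Them4 (r = 0.993, 0.991, 0.990 and 0.990). The genes closest to Sparcl1 were 2810001G20Rik (r = 0.992), Aldh9a1, Olfm1, Stk25 and C1qtnf5 (r = 0.975, 0.969, 0.965 and 0.960). These r describe 6 points that share library and depth, picked as the highest of 7914, so the pattern of these genes over layers and brains was fixed by the choice.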

How the data were processed

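RNA-seq of sorted ULAs and DLAs from 3 brains (6 libraries) was used. Total RNA was reverse transcribed with the SMART-Seq v4 kit, and Nextera XT libraries were sequenced on a HiSeq instrument. The authors deposited RPKM and mRNA lengths for 43383 rows (22829 with a RefSeq accession, 15420 at 0 throughout). Per the labels, processing used CASAVA 1.8.2, bcl2fastq 1.8.4 and mm9; the aligner and counter are not given in the sources used here. RPKM had been truncated, and depth was recovered from rows of at most 500 bases, where at least 99.9% of values equalled a whole read number to 0.01 reads per M (66.11 to 78.59% at the next best depth). For Sparcl1 and Gpc5 in ULAs of brain 1 no whole number did. Deviations from layer means correlated across genes between libraries sharing a number (r = 0.333 to 0.422, otherwise −0.199 to −0.160), so the number was used as the brain.

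The 13999 rows averaging at least 1 RPKM were tested on log2(RPKM + 1), which understates the change of low genes, with limma 3.58.1 in R 4.3.3 (brain and layer, eBayes with trend, 2-sided, Benjamini-Hochberg). Pandas 2.3.3, numpy 2.4.6 and matplotlib 3.10.9 ran in Python 3.11.15. Genes named are the 9 genes, their partner lists, cell type markers and the 5 rows most like Sparc and Sparcl1. Genes and lists were chosen with earlier results of these data known. From the partner lists 1 gene was left out and is not reported here, and genes below the filter enter their counts and are named only in part. The 13 alternatives were no brain term, another pseudocount (0.1), no filter, a higher filter (5 RPKM), median centring, quantile normalization, a length trend removed, no variance trend, each brain left out, a threshold of 0.1 and, added after seeing the data, a genomic-span trend removed (loess, span 0.5).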

Additional observations from a re-analysis of the deposited data

How the results depend on the processing

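The number of rows called higher in ULAs and in DLAs, 100 and 128 as reported, was 23 and 18 with no replicate block, 64 and 83 with the length trend removed, 65 and 79 with no variance trend, 209 and 255 at an adjusted p under 0.1, and 104 to 426 and 126 to 687 when 1 brain was left out, the highest being without brain 3. With the span trend removed it was 68 and 115, and with quantile normalization 138 and 103, which turns the balance around. With no filter on low RPKM limma called 0 and 0 of 27963 rows (1124 and 1675 at an unadjusted p under 0.05), and 0 of the 9 genes were called higher in DLAs, against 1 as reported. Sparc then had an adjusted p of 0.30 at −0.98. In the other 12 of 13 alternatives Sparc was called higher in DLAs, at −1.10 to −0.89. Without the replicate block its adjusted p was 0.0453, and pairing changed no call among the 9 genes. Sparcl1 (0.0019) turned to −0.00042 with quantile normalization, −0.039 with the length trend removed and −0.049 with the span trend removed, and ranged from −0.034 to 0.055 with a brain left out. Gpc5 turned to −0.066 and Gpc6 to −0.042 with the span trend removed, Gpc6 to −0.014 with the length trend removed, and with a brain left out they ranged from −0.10 to 0.26 and from −0.056 to 0.27, the lowest without brain 2. None of these values passed the test, and the cause was not tested. Gpc4 and Thbs3 were higher in ULAs in 13 of 13 alternatives and were called in 0. Thbs1, Thbs2 and Thbs4 rest on at most 60 reads a library, which limits what could be detected.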
